A study of Homo sapiens with 8 samples.

Results

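TAL1, LYL1, LMO2, LDB1, TCF3 and SSBP3 encode the subunits of the complex that is assembled around TAL1 and LMO2 in blood progenitors, and RUNX1 regions were called close to each of them in HEL cells. HEL is a human erythroleukemia line that expresses features of red cell precursors and megakaryocytes. For each gene, all peaks from 50 kb before to 50 kb after it on hg38 were taken from 6 CUT&RUN peak lists, and overlapping peaks were merged into regions. The 6 genes held 72 regions of the 33478 found in the genome, in windows of 104 kb (LYL1) to 288 kb (SSBP3) that did not overlap each other. Having a region nearby is common: 80.9% of 20033 protein-coding genes had at least 1 region of any list within 50 kb.

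In CUT&RUN an antibody on permeabilized cells guides a nuclease that releases the DNA next to its target. The antibody here was against HA, so the lists report the introduced, HA-tagged RUNX1 and not the RUNX1 that HEL cells make themselves. The groups are HEL cells transduced with HA-tagged WT RUNX1, with HA-RUNX1-4A, with HA-RUNX1-4D or with an empty vector, all kept in 2 µg/ml puromycin, with 2 biological replicates per line and 500000 cells per sample. The labels do not say which residues 4A and 4D change. In mutant names of this kind, A commonly stands for alanine, which cannot be phosphorylated, and D for aspartate, which mimics phosphate. Peaks were called against the empty vector line, which has 2 libraries but no list of its own, so the 3 RUNX1 lines share a background. Replicate 1 lists held 5358 to 6764 peaks and replicate 2 lists 21122 to 25911, and read depth is unknown. RNA was not measured, so neither the identity of the cells nor the expression of these genes could be checked here.

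TAL1 is a basic helix-loop-helix protein that pairs with an E protein, such as the product of TCF3 (also known as E2A), to bind E-box motifs. LMO2 has no DNA contact of its own. It bridges the TAL1 and E protein pair to GATA factors and to LDB1, which dimerizes and helps to join distant enhancers to promoters, while SSBP3 protects LDB1 from degradation. LYL1 is a close relative of TAL1 that can take its place in part, and RUNX1 is known to share many regulatory sites with this complex in stem and progenitor cells.

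Annotated promoters of these genes lay under called regions at TAL1, LYL1, TCF3 and SSBP3, and their sequences differ in the motifs they hold. A promoter here is the RefSeq sequence (GRCh38.p14) from 250 bases before to 50 bases after an annotated start. The table has 2 starts each for TAL1 and SSBP3, 1 each for LYL1, LDB1 and TCF3, and LMO2 was not matched. In its place the promoter of LOC105376621 is shown, a RefSeq locus beside LMO2 whose start lay inside a region called in all 6 lists. Capitals mark the RUNX motif (TGTGGT or TGCGGT) and the GATA motif (GATAA), searched on both strands. The GATA matches all lie on the opposite strand and read TTATC as printed. The 5 sequences are shown because a region called in 5 or 6 lists covered all or part of each. Of the promoters under such a region without a motif, TCF3 is printed as the example, and the second SSBP3 start, also fully covered, is not.
TAL1, start 1 (chr1:47232286-47232585, minus strand): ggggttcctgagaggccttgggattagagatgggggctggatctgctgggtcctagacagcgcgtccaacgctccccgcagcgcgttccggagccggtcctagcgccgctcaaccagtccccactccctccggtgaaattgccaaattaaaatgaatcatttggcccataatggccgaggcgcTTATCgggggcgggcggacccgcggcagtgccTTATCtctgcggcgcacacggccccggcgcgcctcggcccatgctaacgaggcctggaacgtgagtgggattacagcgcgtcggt
TAL1, start 2 (chr1:47231666-47231965, minus strand): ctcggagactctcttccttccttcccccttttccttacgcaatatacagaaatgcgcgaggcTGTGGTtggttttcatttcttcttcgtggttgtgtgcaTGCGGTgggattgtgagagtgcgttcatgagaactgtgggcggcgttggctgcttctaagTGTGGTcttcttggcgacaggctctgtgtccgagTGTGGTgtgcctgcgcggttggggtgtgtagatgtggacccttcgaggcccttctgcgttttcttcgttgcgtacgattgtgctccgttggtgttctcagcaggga
LYL1 (chr19:13102809-13103108, minus strand): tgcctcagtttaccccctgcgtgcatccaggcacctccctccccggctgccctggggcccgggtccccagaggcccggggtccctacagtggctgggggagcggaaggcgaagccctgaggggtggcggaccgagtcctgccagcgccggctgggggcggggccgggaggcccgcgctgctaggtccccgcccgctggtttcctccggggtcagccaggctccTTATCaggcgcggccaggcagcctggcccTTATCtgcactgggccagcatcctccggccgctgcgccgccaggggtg
LOC105376621 (chr11:33893696-33893995, plus strand): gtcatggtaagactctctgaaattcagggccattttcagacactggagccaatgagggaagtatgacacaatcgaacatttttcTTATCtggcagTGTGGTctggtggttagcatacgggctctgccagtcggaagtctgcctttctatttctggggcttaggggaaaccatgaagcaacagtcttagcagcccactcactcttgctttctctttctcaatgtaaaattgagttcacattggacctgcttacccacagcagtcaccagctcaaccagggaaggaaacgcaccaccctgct
TCF3 (chr19:1652566-1652865, minus strand): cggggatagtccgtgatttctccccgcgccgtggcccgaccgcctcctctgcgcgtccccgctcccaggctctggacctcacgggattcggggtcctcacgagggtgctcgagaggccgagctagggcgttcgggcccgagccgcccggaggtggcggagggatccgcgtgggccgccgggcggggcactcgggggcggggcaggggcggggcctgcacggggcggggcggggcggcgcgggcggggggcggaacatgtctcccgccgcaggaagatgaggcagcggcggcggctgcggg

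The second TAL1 start had 4 RUNX motifs, on the gene's own strand, with first bases at positions −188, −150, −90 and −56 from the start. Of 35116 promoters in the table, 19.6% held at least 1 such motif and 13 (0.037%) held 4 or more. The first TAL1 start had no RUNX motif but 2 GATA motifs at positions −67 and −35, and 1 E-box (CANNTG). LYL1 also had 2 GATA motifs, at −27 and 2, and no RUNX motif. At least 2 GATA motifs occurred in 4.80% of all promoters and at least 1 in 22.7%. The promoter of LOC105376621 held 1 motif of each kind, the RUNX motif at −155 and the GATA motif at −166. No RUNX or GATA motif was found in the promoters of TCF3, LDB1 or SSBP3. The median summits of the regions at TCF3, LYL1 and the second SSBP3 start lay upstream of the searched bases. The sequence at those median summits was not read, so a motif there would have been missed. E-boxes, which 68.7% of all promoters held, were found among the promoters searched here at the first SSBP3 start (4) and the first TAL1 start (1). Among the 2142 promoters under a region called in all 6 lists, 29.8% held a RUNX motif and 11.1% a GATA motif. No RUNX, GATA or E-box match overlapped another.

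**Figure D1:**
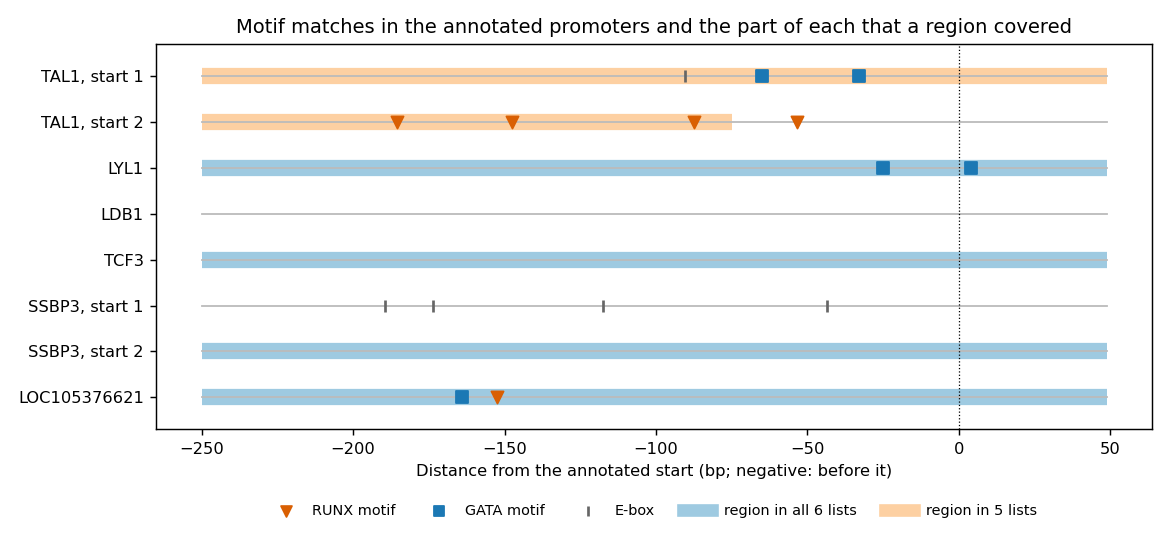
Positions of motif matches in 8 annotated promoters (rows; x axis in bp from the annotated start, negative before it), with the part covered by a called region shaded by the number of lists that called it. The second TAL1 start shows 4 RUNX motifs, 3 of them inside the region called in 5 lists, and the LDB1 row and the first SSBP3 row have no region.

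Regions called in every list were found at 5 of the 6 genes, and LDB1 was the exception. There were 5 at SSBP3, 2 each at LYL1 and LMO2, and 1 each at TAL1 and TCF3, which makes 11 of the 72 regions (15.3%), against 9.84% of all regions in the genome. Within 50 kb, 30.5% of 20033 protein-coding genes had such a region. At least 2 such regions were found at 9.80% of genes and at 3 of the 6. SSBP3 is a long gene of 188 kb, and its count of 5 was reached by 0.195% of genes. By regions of any list per 100 kb, LYL1 had 15.4, SSBP3 8.33, LDB1 7.54, TAL1 6.89, LMO2 6.74 and TCF3 4.19, against a median of 1.84 over all protein-coding genes. A density as high as that of LYL1 was found at 0.245% of genes, and one as high as that of TCF3 at 24.0%. Of the 72 regions, 24 (33.3%) were called in a single list, against 34.5% of all regions, and 13 (18.1%) in the replicate 2 list of every line and in no replicate 1 list, against 22.3%. Without the 3 shorter replicate 1 lists, 32 regions were in all remaining lists (share over all regions not counted), and LDB1 then had 3. These shares describe where the genes lie among all genes and are not tests, since windows of neighbouring genes overlap.

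**Figure D2:**
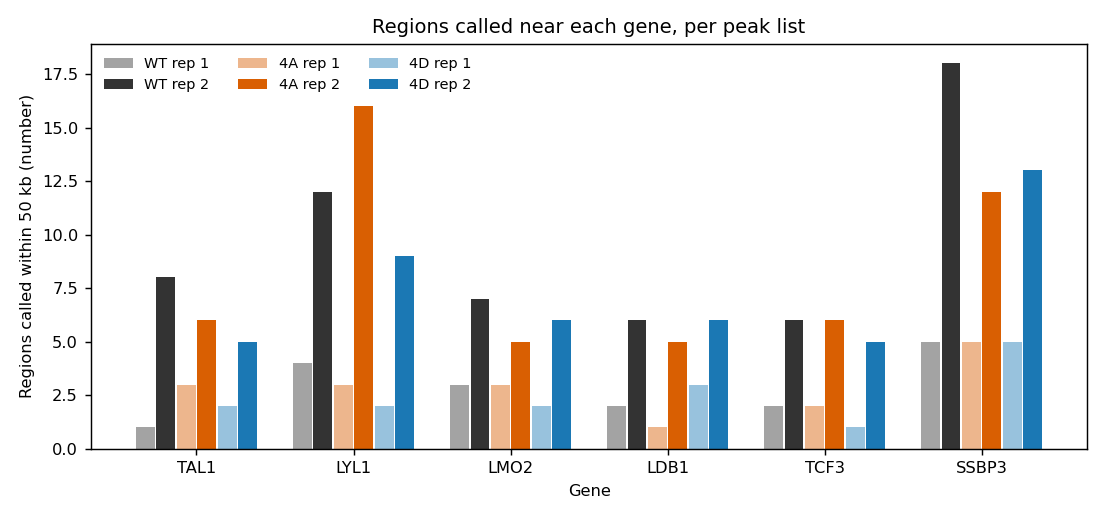
Number of regions called within 50 kb (y axis) of each gene (x axis) in the 6 lists, light bars for replicate 1 and dark bars for replicate 2. Replicate 2 bars stand above the replicate 1 bar of the same line at every gene, and the highest bar is 18 regions at SSBP3 in WT replicate 2.

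At TAL1, the helix-loop-helix partner that names the complex, the region called in all lists lay beyond the 3′ end of the gene and not at its promoters. TAL1 runs from 47216290 to 47232335 on chromosome 1, on the minus strand. The region chr1:47212961-47213858 had its summit 2.74 kb past the 3′ end, 18.8 kb downstream of the first start, in the flank where a blood stem cell enhancer of TAL1 is known. The −log10 q, the authors' measure of peak significance, reached 12.9 and 43.1 with WT (replicates 1 and 2, in this order throughout), 13.9 and 77.4 with 4A, and 4.82 and 49.5 with 4D. The fold enrichments over the empty vector were 8.31 and 12.3 (WT), 8.62 and 13.8 (4A), and 5.64 and 12.0 (4D). In each line replicate 2 was above replicate 1, and the lowest value of the 6 was that of 4D replicate 1.

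The TAL1 promoters lay under a region, chr1:47231790-47232650, that was called in both replicates of 4A and 4D and in replicate 2 of WT. It covered the whole promoter of the first start and 176 of the 300 bases of the second, with 3 of the 4 RUNX motifs. The peaks were low, with −log10 q of 6.45 in WT replicate 2, 5.98 and 9.51 with 4A, and 3.47 and 5.96 with 4D. The summits were spread over 437 bp. That of 4A replicate 1 lay 9.5 bp from the middle of the nearest RUNX motif found in these promoters, and that of 4D replicate 1 lay 145 bp from it. The replicate 2 summits lay 365 bp (WT), 447 bp (4A) and 366 bp (4D) away from it, nearer the first start. Bases between the promoters of the first and second start were not searched, so a nearer motif there would have been missed. Farther out, a region 9.44 kb upstream of the first start (chr1:47241403-47242129) was called in 4 lists and missed in replicate 1 of WT and 4D. A pair of regions about 51.0 and 51.6 kb downstream, on the side of PDZK1IP1, where an erythroid enhancer of TAL1 is known, was called in WT replicate 2, and the first of them (chr1:47181150-47181521) also in 4A replicate 2 (−log10 q of 9.56 and 3.22). No 4D list called them.

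LYL1, the relative of TAL1, is a short gene of 3.83 kb (chromosome 19, 13099033 to 13102858) with a region called in all 6 lists at each end. The upper region, chr19:13102579-13103923, covered the promoter and had its median summit 0.662 kb upstream of the start. Its −log10 q was 4.60 and 55.7 with WT, 10.7 and 69.8 with 4A, and 2.23 and 71.6 with 4D. The second region, chr19:13098711-13100993, covered the 3′ part of the gene, with −log10 q of 5.78 and 104 with WT, 14.3 and 96.5 with 4A, and 2.93 and 78.4 with 4D. At both regions the −log10 q of every replicate 2 library was above that of every replicate 1 library. Lists of unequal length do not share a scale of rank, and within their own lists the pair lay between percentiles 5.45 and 70.5 (replicate 1) and between 93.1 and 98.2 (replicate 2). When peaks below a −log10 q of 5 were dropped, neither LYL1 nor TAL1 had a region of all lists. At each of these regions 4D replicate 1 was below 5, and at the LYL1 promoter WT replicate 1 was as well. Of the 16 regions in the LYL1 window, LYL1 was the nearest protein-coding gene for 2. The others lay in or nearer to NFIX, TRMT1, NACC1, STX10 and IER2, and 6 were called in the 3 replicate 2 lists and in no replicate 1 list.

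LMO2, the adaptor, carried the region with the highest mean percentile among the 72. The gene spans 33858576 to 33892076 on chromosome 11. The region chr11:33885044-33886303 inside the gene had −log10 q of 102 and 168 with WT, 104 and 237 with 4A, and 68.4 and 192 with 4D, and ranked at percentile 99.4 or above in each list. Its fold enrichment ranged from 29.6 in 4D replicate 1 to 37.0 in 4A replicate 1, and its summits lay within 20 bp of each other. The other region called in all lists, chr11:33892932-33894523, lay outside the gene with its median summit 1.89 kb above the upper end. It had −log10 q of 46.2 and 173 with WT, 28.2 and 205 with 4A, and 12.8 and 137 with 4D. The 6 summits of this region lay within 13 bp of each other and between 165 and 178 bp from the RUNX motif in the promoter of LOC105376621. Bases of the region outside that promoter were not searched, so a nearer motif there would have been missed. A region farther inside LMO2, chr11:33870152-33870717, was called in 5 lists with the same summit base in each. It was missed in 4D replicate 1 and had −log10 q of 5.69 and 41.6 with WT, 5.65 and 29.4 with 4A, and 27.3 in 4D replicate 2. LMO2 was the nearest protein-coding gene for all 9 regions of its window, and 4 of the 9 were called in 1 list.

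LDB1, the dimerizing subunit (chromosome 10, 102102088 to 102121442), had 9 regions, none of them called in all lists. Without replicate 1 of 4A, or without replicate 1 of 4D, 1 region was in all the remaining lists. Its only annotated promoter, at a start inside the gene (102115002), was free of regions in every list. On either side of that start, inside the gene, lay chr10:102112377-102112974, with its summit 2.51 kb downstream, and chr10:102117449-102117991, 2.54 kb upstream. The downstream region was called in 5 lists, with −log10 q of 18.8 and 37.3 with WT, 26.5 in 4A replicate 2, and 16.6 and 15.6 with 4D, and was missed in 4A replicate 1. The upstream region was called in 4 lists, with −log10 q of 15.3 in WT replicate 2, 14.2 in 4A replicate 2, and 5.29 and 13.9 with 4D. The upper end of the gene, its 5′ end on the minus strand, had no LDB1 promoter entry. A region with its median summit 1.36 kb inside that end was called in replicate 2 of WT and 4A. A region 0.739 kb inside it was called in WT replicate 2 alone. Another region of 5 lists, chr10:102055861-102056362, lay 46.0 kb below LDB1 at the promoter of ARMH3 and was missed in 4D replicate 1. Its −log10 q was 18.8 and 18.6 with WT, 4.18 and 7.23 with 4A and 3.87 in 4D replicate 2. At LDB1 the missing call thus fell in 4A for the one region and in 4D for the other, each time in replicate 1.

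TCF3, the E protein partner (chromosome 19, 1609292 to 1652615), had its 1 region of all lists at the promoter, and no region had its summit inside the gene. The promoter region, chr19:1652504-1653395, had a median summit 0.344 kb upstream of the start. Its −log10 q was 23.4 and 43.5 with WT, 20.5 and 39.8 with 4A, and 22.4 and 29.5 with 4D. The fold enrichments were 13.9 and 18.9 (WT), 13.2 and 15.1 (4A), and 14.2 and 13.7 (4D). The −log10 q was higher in replicate 2 of each line, while the fold enrichments of the replicates overlapped. Within its own list the region ranked between percentiles 80.9 and 89.6. On the other side of the gene, regions lay at UQCR11 and MBD3, of which that at the UQCR11 promoter (chr19:1605425-1606020) was called in 5 lists and missed in 4D replicate 1.

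SSBP3, the stabilizer of LDB1 (chromosome 1, 54225432 to 54413490), had 24 regions, 20 of them inside the gene, and its 5 regions of all lists were all intragenic. The highest by rank, chr1:54375384-54376615, had −log10 q of 39.7 and 138 with WT, 26.7 and 162 with 4A, and 24.6 and 120 with 4D, and the 6 lists placed its summit on the same base. Beside it, chr1:54376804-54377705 had values of 34.0 and 105 (WT), 12.1 and 83.0 (4A), and 10.3 and 77.0 (4D). The region chr1:54406311-54407187 covered the promoter of the second start. Its −log10 q was 24.8 and 105 with WT, 2.27 and 95.3 with 4A, and 9.74 and 69.4 with 4D, with 4A replicate 1 close to the threshold of its list. The promoter of the first start had no region in any list. The remaining regions of all lists were chr1:54397041-54397756, with −log10 q from 8.70 (4D replicate 1) to 74.2 (4A replicate 2), and chr1:54229339-54230059 near the 3′ end, from 2.79 (4D replicate 1) to 49.5 (WT replicate 2). Regions at chr1:54383413-54383862 and chr1:54417273-54417558 were high in the 3 replicate 2 lists, at percentile 90.7 or above, and in no replicate 1 list.

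**Figure D3:**
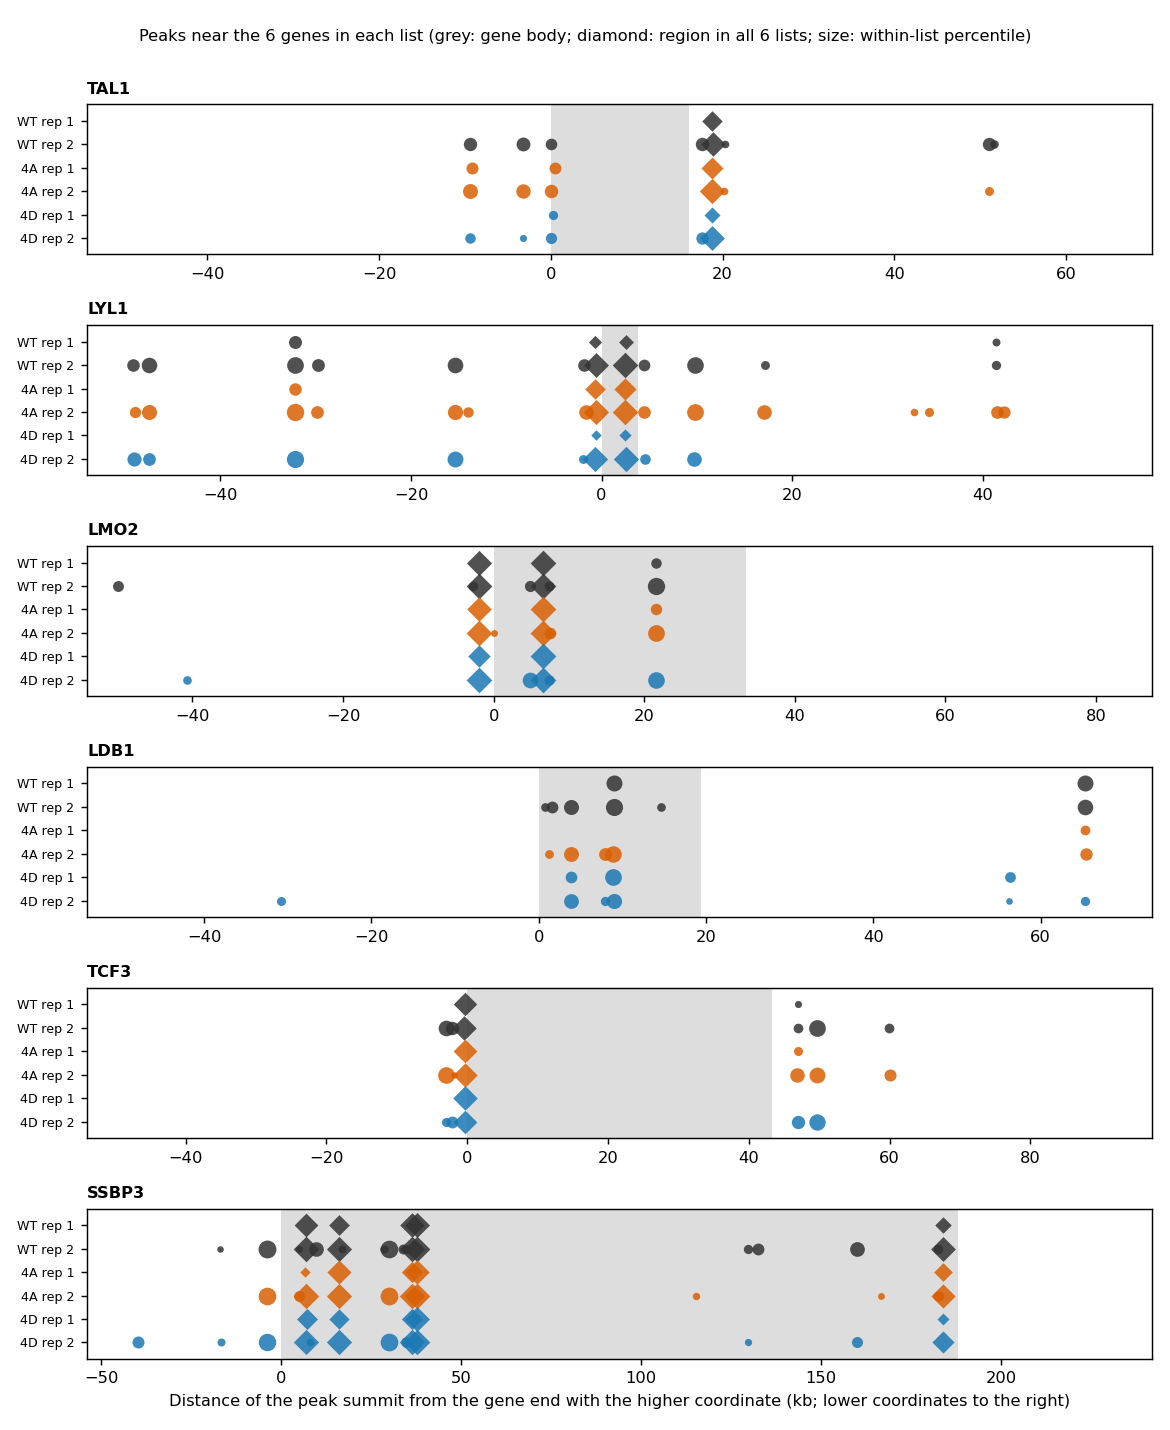
Peak summits near the 6 genes (panels) in the 6 lists (rows), by distance in kb from the gene end with the higher coordinate, with lower coordinates to the right. Grey is the gene body, diamonds are regions called in all lists and symbol size grows with the percentile of −log10 q within the list. Diamonds sit past the 3′ end at TAL1, at the promoter of TCF3 and inside SSBP3. At LYL1 and at LMO2 they sit inside the gene and above its upper end, and LDB1 has none.

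**Figure D4:**
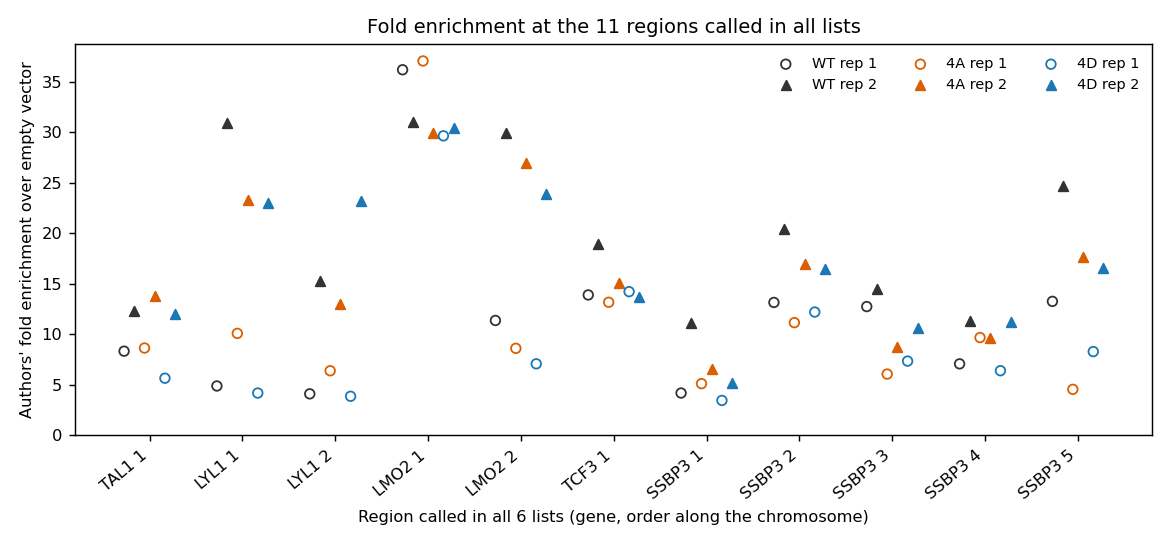
The authors' fold enrichment over the empty vector (y axis, linear) at the 11 regions called in all 6 lists (x axis), with open circles for replicate 1 and triangles for replicate 2. The first LMO2 region and the TCF3 region have overlapping values in the replicates, while the LYL1 regions and the second LMO2 region are higher in replicate 2 of each line.

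The regions called in all lists had a median width of 902 bp (11 regions) and the others of 330 bp (61 regions). A region spans every peak merged into it, so more lists make it wider by construction. The summits of the regions called in all lists varied over the lists by 0 to 462 bp, with a median of 86.0 bp. Of the 11, 4 (36.4%) overlapped an annotated promoter, against 42.1% of such regions over the chromosomes of the promoter table. Of all 72 regions 13 (18.1%) did, against 21.8%. The median summit lay within 1 kb of an annotated start in 15 (20.8%), against 26.2%.

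The comparison of lines asked whether the RUNX1 forms differed in the regions called at these genes, and for each pair of lines at most 1 region had 2 calls in the first and none in the second. The lists of WT called 17 and 57 of the 72 regions in replicates 1 and 2, those of 4A 17 and 50, and those of 4D 15 and 44. A WT library thus had 37.0 ± 28.3 regions on average, a 4A library 33.5 ± 23.3 and a 4D library 29.5 ± 20.5 (SD, n = 2). The differences of −7.5 (4D minus WT), −3.5 (4A minus WT) and −4.0 (4D minus 4A) regions were smaller than the spread between replicates. Within replicates 1 and 2 they were −2 and −13, 0 and −7, and −2 and −6, in the same order of pairs. The exact permutation test over libraries, two-sided, gave p = 0.667, 1.00 and 0.667 in that order, and 0.333 is the smallest that 2 against 2 libraries allow. When the lists of a replicate number were trimmed to the shortest of them, 4D minus WT became 1.0 and 4A minus WT 1.5, so the direction moved with the length of the lists. The direction also turned without WT replicate 2, when 4D minus WT was 12.5 and 4A minus WT 17.0, without 4D replicate 1 (4D minus WT 7.0, 4D minus 4A 10.5), without 4A replicate 1 (4A minus WT 13) and without 4A replicate 2 (4D minus 4A 12.5). Leaving out 1 library sets a lone list against lists of both replicates, and replicate 2 lists are longer. Those turns without a library thus say nothing about the lines. The labels call the replicates biological and give no further detail of the cultures.

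Both WT lists called 17 regions, both 4A lists 17 and both 4D lists 15, or 23.6, 23.6 and 20.8% of the 72, against 19.1, 17.0 and 14.8% of all regions. Each replicate 1 call at these genes was also a call in replicate 2 of its line (49 of 49), while over all regions the share was 97.0% in WT, 92.7% in 4A and 95.1% with 4D. By gene, the sets of WT, 4A and 4D held 1, 3 and 2 regions at TAL1, 4, 3 and 2 at LYL1, 3, 3 and 2 at LMO2, 2, 1 and 3 at LDB1, 2, 2 and 1 at TCF3, and 5 each at SSBP3. No line was highest at all genes: 4A led at TAL1, WT at LYL1 and 4D at LDB1. These leads were small and counted regions of other genes in the windows. Such were a region inside NFIX in the WT set at LYL1 and a region at the HPS6 promoter in the 4D set at LDB1.

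In the set of WT and free of 4D calls was 1 region of the 72 (1.39%, against 0.472% of all regions), chr19:13061274-13061525 inside NFIX, 37.6 kb below LYL1. Its −log10 q was 3.39 and 3.87 with WT, and 4A replicate 2 called it as well (7.82). The opposite pattern was shown by 1 region (background 0.114%), chr10:102065021-102065240 at the promoter of HPS6, 36.9 kb below LDB1. Its −log10 q was 4.68 and 1.53 with 4D, and as no 4A list called it, it was also the 1 region in the 4D set and free of 4A calls (background 0.314%). No region was in the 4A set and free of WT calls (background 0.206%), in the WT set and free of 4A calls (0.269%), or in the 4A set and free of 4D calls (0.669%). These regions, chosen by this very pattern, lay at or below percentile 41.6 of each list that called them. Neither pattern was found with all lists at one length, and windows of 10 kb leave both regions out by their distance from the gene. These counts rest on the replicate 1 lists: without WT replicate 1, 20 regions were in the remaining WT list and free of 4D calls and 16 free of 4A calls. Without 4A replicate 1, 17 were in the remaining 4A list and free of 4D calls and 9 free of WT calls. Without 4D replicate 1, 7 were in the remaining 4D list and free of WT calls and 11 free of 4A calls. The share of all regions with these patterns was not counted, so they cannot be read as a trait of these genes.

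Other genes of the pathway were counted in the same windows, from a list of 29 genes. Of these, 14 had a region called in all 6 lists, where 30.5% of all protein-coding genes did. Among the cofactors, 6 of 7 had one: SIN3A and CBFA2T2 with 3 each, and CBFA2T3, KDM1A, RCOR1 and HDAC1 with 1 each. CBFA2T3 encodes the ETO2 corepressor that joins the complex, and KDM1A and RCOR1 encode a histone demethylase and its scaffold. HDAC2 had 3 regions but none of all lists. Among the partner transcription factors, 4 of 8 had one, namely RUNX1 (6), FLI1, SP1 and GATA1, and none was found at GATA2, GATA3, KLF1 or ERG. GATA2, picked out after its values were seen, had 12 regions, with 2 in the WT set and 0 in those of 4A and 4D. Of all regions, 19.1, 17.0 and 14.8% were in the sets of WT, 4A and 4D. The share of genes with such a pattern was not counted. Each line called 7 to 11 of the 12 GATA2 regions in replicate 2, and the replicate 1 lists of 4A and 4D called none.

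Among the paralogs 3 of 9 had a region of all lists: SSBP4, a relative of SSBP3, with 3, and LMO1 and TCF12, an E protein gene, with 1 each. No list had a region near LDB2 or LMO3, while 80.9% of protein-coding genes had at least 1 within 50 kb. TAL2, LMO4, TCF4 and SSBP2 had 1 to 4 regions each. Of the inhibitors, the ID proteins that sequester E proteins and RLIM, the ligase that marks LDB1 for degradation, 1 of 5 had one, ID1. By the sets of the lines, 18 (WT), 15 (4A) and 17 (4D) of the 29 genes had a region, against 46.9, 42.7 and 39.2% of protein-coding genes. Each of the 6 complex genes had one in every line, but the only one of 4A at LDB1 was the region at the ARMH3 promoter. The lists are too short, and their windows too unlike in length, to set one against another.

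**Figure D5:**
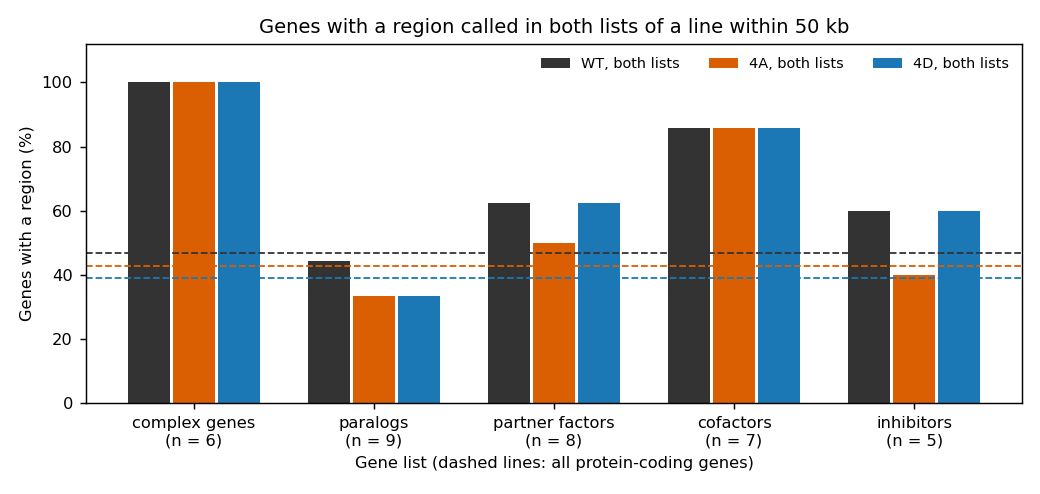
Share of genes (y axis, %) with a region called in both lists of a line within 50 kb, for the 6 complex genes and 4 lists of related genes (x axis, number of genes in brackets), with dashed lines for all protein-coding genes. The 6 complex genes stand at 100% in each line, with LDB1 counted in 4A by a region at the ARMH3 promoter. The paralogs lie below the dashed lines.

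Genes with a like pattern were found by the percentile of the strongest peak in the window over the 6 lists. For LMO2 the nearest were CPNE1, RBM12 and SPAG4 on chromosome 20, which share their windows, with a mean difference of 0.145 percentile points. For SSBP3 they were C15orf39 (0.856), MRPS25 and NR2C2 (both 0.937), and for TCF3 CLCN6 and NPPA (both 1.5) and RHOH (2.01). For TAL1 they were KBTBD2 (2.08), FBXL17 (2.28) and CD55 (2.67). LYL1 and LDB1 had less close matches: CFAP97D2 (3.37), OAF and POU2F3 (both 3.56) for LYL1, and ENSA, GOLPH3L and MCL1 (all 5.03) for LDB1. Percentiles have an upper limit, so genes near the top of every list, such as LMO2, can differ only little from each other.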

How the data were processed

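The deposited files are 6 peak lists, 1 for each library of WT, 4A and 4D. Per the submitters' processing notes, the tools were MACS2 2.2.7.1, deepTools 3.5.1, Picard 2.25.6, Bowtie2 2.4.2 and cutadapt 3.4, and the build was hg38. Read filters, and whether the background libraries were pooled, are not given in the sources used here. For each peak the authors deposited a score, a fold enrichment (a linear ratio over the empty vector), p-values and q-values as −log10, and a summit. As each peak's own values from the authors, they served to rank or filter peaks inside their list. Values of different lists are set side by side as a description with no test, since the lists differ in length and their depth is unknown.

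Only chromosomes 1 to 22, X and Y were used. Peaks of different lists sharing 1 bp or more became a region, which took the highest peak of each list. Coordinates are 1-based. Gene positions came from RefSeq (GRCh38.p14), and promoters from a RefSeq table that does not cover all genes. The set of a line holds the regions that both its libraries called. Percentiles are ranks of −log10 q within a list, and lists of different length are not on one scale of rank. An uncalled region was not detected at that library's depth, which is unknown.

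The genes, the 29 related genes and the tests were chosen with earlier results of these data known. Named regions are those called in all 6 lists, the highest by mean percentile, those at promoters of the 6 genes and those that parted lines. Regions called in 5 lists, others that show a pattern, and pathway genes without a region of all lists were added after their values were seen. Genes with a like pattern are the 3 with the smallest mean absolute difference in the percentile of the strongest peak, in windows apart from that of the gene. Line means were compared by exact permutation over libraries. Code was tested on simulated lists. Python 3.11.15, pandas 2.3.3 and numpy 2.4.6 were used. Alternatives were the window, a −log10 q of at least 5, windows of 100 bp around summits, list lengths, leaving out replicates and blocking by replicate number.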

Additional observations from a re-analysis of the deposited data

How the results depend on the processing

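With summit windows, and with windows of 100 kb, every count summed over the 6 genes was within 1.5 times of the value given and no mean difference changed direction. By gene, TAL1 had 2 regions of all lists with windows of 100 kb in place of 1. With windows of 10 kb, regions in the WT set and free of 4D calls, in the 4D set and free of WT calls, and in the 4D set and free of 4A calls all numbered 0. The regions behind these counts lie more than 10 kb from the gene, so their loss follows from the window. With a −log10 q of at least 5, regions of all lists numbered 6, at 3 genes (none at TAL1 or LYL1), those in the 4D set and free of WT or of 4A calls 0, and those in the 4A set and free of 4D calls 1. At equal lengths within each replicate number the count of regions in the WT set and free of 4D calls was 0. The difference in mean number per library turned to 1 (4D minus WT) and 1.5 (4A minus WT). With all lists at one length 25 regions were left in the union, the counts of regions parting 4D and WT, in either direction, and 4D from 4A were 0, and 4A minus WT was 1. Of the 11 regions of all lists, 9 were still in all 6 at equal lengths within each number and 8 at one length. The cause of these shifts beyond the fewer peaks was not tested.

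Leaving out libraries, regions of all remaining lists ranged from 11 to 32, the genes holding one from 5 to 6, and the union from 21 to 72. Without replicate 1 of 4A or of 4D, LDB1 had 1 such region. Regions in the WT set and free of 4D calls ranged from 1 to 20, and the reverse from 1 to 7. For WT free of 4A the range was 0 to 16, and for the reverse 0 to 9. For 4A free of 4D it was 0 to 17, and for the reverse 1 to 11. None of these ranges was counted over all regions. The mean differences ranged from −27.5 to 12.5 (4D minus WT), −23.5 to 17 (4A minus WT) and −20.5 to 12.5 (4D minus 4A), as replicate 2 lists are longer.

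With the replicate block the differences were the same, −7.5, −3.5 and −4, with exact p = 0.5, 1 and 0.5, and 0.5 is the smallest 2 pairs allow. The labels give shared numbers but no shared batch, although within each line replicate 2 had more regions.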
